A study of Homo sapiens with 4 samples.

Results

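Peaks of N6-methyladenosine (m6A) that run across at least 1 exon junction were examined in RPMI-8226, an established human multiple myeloma line. They were the rows with 2 or more blocks in the deposited peak lists, 8317 of 47074 rows in all. The shNC list held 3915 such spliced peaks among 22448 (17.4%, 95% interval 16.9 to 17.9), and the shALKBH5 list held 4402 among 24626 (17.9%, 17.4 to 18.4). The block structure comes from the same files as the signal, so the numbers of spliced peaks describe the lists and test nothing. Cells received lentivirus carrying either a hairpin against ALKBH5 (shALKBH5) or the hairpin named shNC, and poly(A) RNA selected from total RNA was used. Each condition had 1 library immunoprecipitated with an m6A antibody (IP) and 1 library of the RNA before immunoprecipitation (input), 4 libraries in all. There was no replicate, so no p-value between conditions was computed and values of the lists are only set side by side. Read counts are absent from the tables: library depth is therefore unknown, and the level of ALKBH5 RNA could not be used to check the knockdown. All intervals are exact 95% binomial or order-statistic intervals over peaks and cover counting error only, since peaks are not independent replicates.

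m6A is placed on nuclear RNA by a complex built around METTL3 and METTL14, is removed by ALKBH5 and FTO, and is bound by reader proteins such as those of the YTH family. In messenger RNA it is found mostly in long internal exons and around stop codons, where last exons are usually long. The exon junction complex, deposited just upstream of each junction during splicing, is known to keep the methyltransferase away from the RNA near it, so short internal exons carry little m6A. A caller that works on joined exons can nevertheless draw a peak across a junction. Antibodies to m6A also bind the related cap-adjacent base m6Am, which occurs at transcript starts.

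A spliced peak is printed in the files as a chain of blocks, and the gap between neighbouring blocks is called a junction here. The lists give no reads, so whether any read crossed a junction cannot be seen. No genome sequence was used, and sequences around junctions are not shown. The RefSeq promoter table for GRCh38.p14 holds the first transcribed bases of some genes. For 6 of the named peaks at a gene start, the first 30 transcribed bases are printed below, 5′ to 3′, because they show which of these bases lie in the first block. Capitals mark bases inside the first block of the spliced peak.

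EIF5B, chr2:99337389-99337418, plus strand: ACACCATATGTGTCCTGTTCCAGTGCGCGG
CENPF, chr1:214603195-214603224, plus strand: AGAAGCGGGCGAATTGGGCACCGGTGGCGG
U2AF2, chr19:55655035-55655064, plus strand: AGCCGAAGCGGCTGGAGCGGGCGGCAAGGC
DUSP23, chr1:159780962-159780991, plus strand: AGACCACGTGGCCCGGGAGGCGCCGAGGCC
REXO2, chr11:114439467-114439496, plus strand: gactattgCGCCTGCGCCAGCGCCGGCTGC
MYH9, chr22:36387938-36387967, minus strand: GCAGATCACCGCGGTTCCTGGGCAGGGCAC

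In 5 of these 6 genes all 30 bases lay inside the first block, and in REXO2 the block began at the ninth base. None of the 6 stretches holds GGAC, a common form of the m6A consensus, on the transcribed strand.

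Most spliced peaks crossed a single junction. In the shNC list 3376 of them (86.2%) had 2 blocks, 433 had 3, 88 had 4, 12 had 5, 4 had 6 and 2 had 7. In the shALKBH5 list 3814 (86.6%) had 2 blocks, 497 had 3, 80 had 4, 9 had 5 and 2 had 6. Of the genes with any peak, 3324 of 11318 (29.4%) had a spliced peak in the shNC list and 3756 of 12088 (31.1%) in the shALKBH5 list. Of the genes with a spliced peak, 2687 were shared, which is 80.8% of those of the shNC list and 71.5% of those of the shALKBH5 list. Of genes with any peak 93.8% and 87.8% were shared, and of genes with a single-block peak 90.4% and 84.9%. Another 637 genes had a spliced peak with shNC alone and 1069 with shALKBH5 alone.

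Spliced peaks were the longer and statistically stronger peaks of each list, while their fold was close to that of single-block peaks. Length here is exonic, the sum of the blocks, and fold is the enrichment of IP over input as the authors' deposited table gives it. The median exonic length was 330 bases (327 to 330) for spliced and 270 bases (269 to 270) for single-block peaks in the shNC list, and 300 bases (300 to 301) and 241 bases (241 to 264) in the shALKBH5 list. The share of spliced peaks among all peaks of a length class was 8.72% under 150 bases, 15.9% from 150 to under 300, 19.9% from 300 to under 600 and 24.7% at 600 bases or more in the shNC list. The same classes held 9.24%, 17.2%, 19.8% and 25% in the shALKBH5 list. Longer peaks were thus more often spliced in each list, as the plot of blocks and lengths shows.

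**Figure D1:**
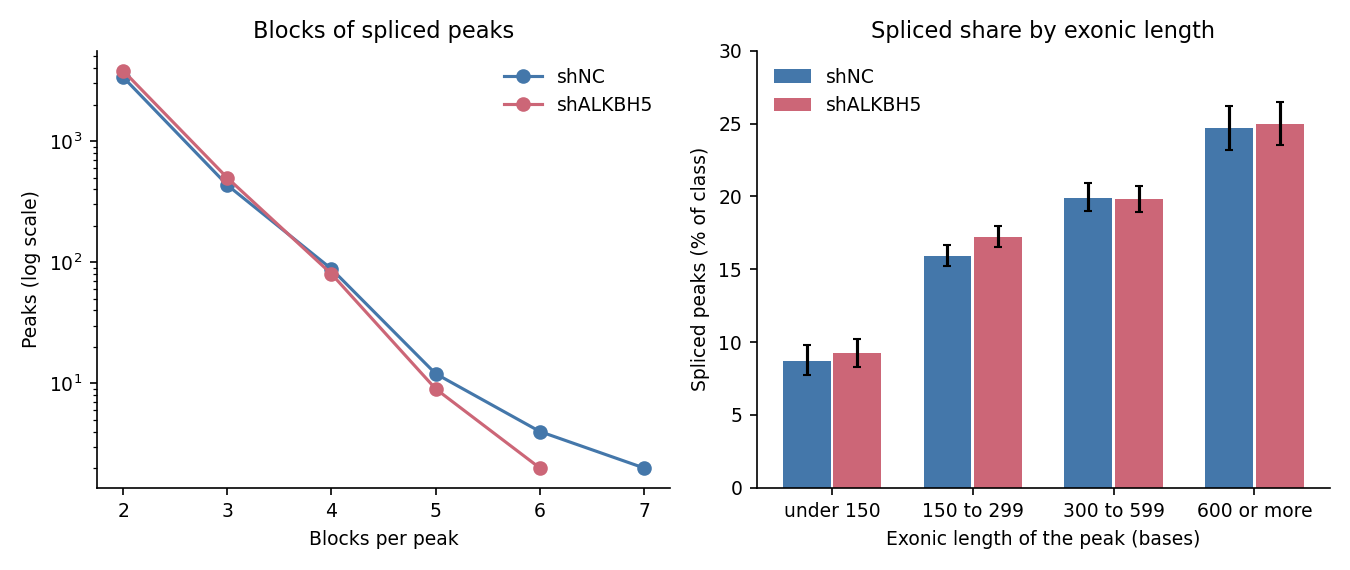
Left, number of spliced peaks (log scale) by blocks per peak, 1 line per list. Right, spliced peaks as a percentage of all peaks in 4 classes of exonic length, with 95% binomial intervals, where the share climbs from 8.72% to 24.7% in the shNC list and from 9.24% to 25% in the shALKBH5 list.

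The median fold was 6.66 (6.40 to 6.90) for spliced and 6.50 (6.39 to 6.64) for single-block peaks in the shNC list, and 6.79 (6.55 to 7.12) and 6.58 (6.44 to 6.70) in the shALKBH5 list. These intervals overlapped within each list. Within length classes the median of spliced peaks was the lower. From 150 to under 300 bases the median fold was 4.10 (3.92 to 4.38) for spliced and 4.54 (4.46 to 4.64) for single-block peaks in the shNC list, and 4.27 (4.10 to 4.47) and 4.69 (4.58 to 4.83) in the shALKBH5 list. From 300 to under 600 bases it was 7.28 (6.91 to 7.69) and 8 (7.83 to 8.22) in the shNC list, and 7.82 (7.43 to 8.19) and 8.27 (8.08 to 8.48) in the shALKBH5 list, where the intervals overlapped. They also overlapped under 150 bases and at 600 bases or more in each list, for example 11.9 (11.5 to 12.4) and 12.3 (11.8 to 12.8) at 600 or more with shNC. The median log10 p of the authors' deposited table was -31.6 for spliced and -13.8 for single-block peaks in the shNC list, and -26.9 and -13.5 in the shALKBH5 list. When each list was ranked by that p and cut into 4 equal classes, 26.3% of the strongest class of shNC peaks were spliced and 10.5% of the weakest. In the shALKBH5 list these shares were 25.5% and 11.6%.

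The gaps had the sizes of introns for nearly all members, with every gap at least 30 bases in 98.8% of shNC and 98.6% of shALKBH5 spliced peaks. Over distinct junctions the median gap was 1388 bases with shNC and 1369 bases with shALKBH5, with a range of 1 to 247862 bases in each. The label of exon junctions did not hold for every row: 46 shNC peaks (1.17%) and 63 shALKBH5 peaks (1.43%) had a gap under 30 bases. TICAM1, the adaptor of Toll-like receptor 3, was the extreme case, with 6 blocks separated by gaps of 1 base at chr19:4817695-4817970 in both lists, beside a single-block peak over most of the same bases. Its fold was 3.24 with shNC and 4.92 with shALKBH5. Such rows stay in the counts because the rule takes them.

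Many members reached only a short way into the neighbouring exon. The shortest block of a spliced peak had a median of 31 bases (29 to 32) with shNC and 30 bases (28 to 31) with shALKBH5. It was under 10 bases in 760 shNC peaks (19.4%) and 824 shALKBH5 peaks (18.7%), and a single base in 94 and 95 peaks. Those 94 and 95 peaks lie just inside the rule, with median folds of 5.73 and 6.37. Just outside it lie 17 shNC and 14 shALKBH5 single-block peaks that stopped exactly at a border crossed by a spliced peak, with median folds of 7.16 and 9.47. Blocks with a junction on either side had medians of 117 bases (107 to 125) over 671 shNC blocks and 120 bases (110 to 129) over 692 shALKBH5 blocks. These are all such blocks rather than the shortest per peak, so their medians cannot be compared with those above. The shortest of them had 2 bases with shNC and 3 with shALKBH5. No exon table was used, so whether they are whole exons was not checked.

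**Figure D2:**
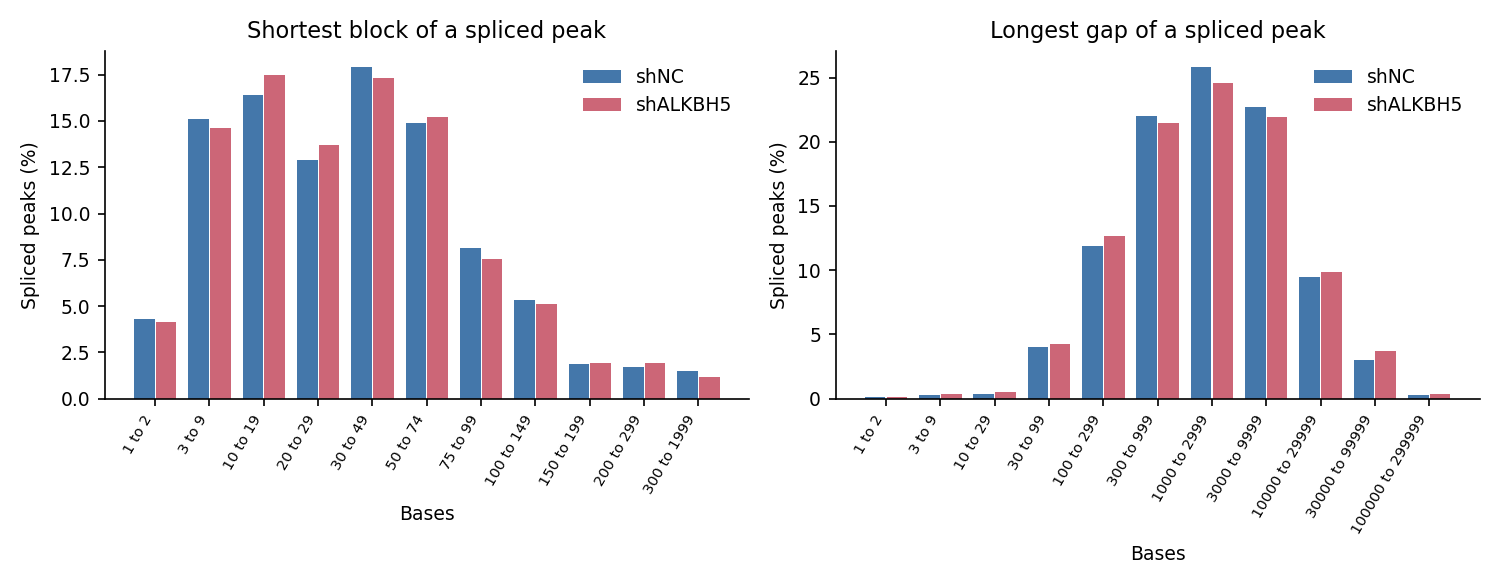
Percentage of spliced peaks by the length of their shortest block (left) and of their longest gap (right), in bases, with 1 bar per list. Blocks under 10 bases made up 19.4% of the shNC and 18.7% of the shALKBH5 spliced peaks, and the 2 lists had similar profiles in both panels.

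Where the bases lay relative to the junction depended on the place in the gene. Among 2-block peaks the upstream block held a median of 27.3% of the bases (24.7 to 30.5) with shNC and 34.9% (31.7 to 38.3) with shALKBH5. For 2-block peaks at a gene start the upstream block held 66.0% (62.1 to 70) and 69.0% (65.3 to 72.6). For those at a gene end it held 11% (8.29 to 15.4) and 8.66% (7.06 to 11.9), and elsewhere 17.9% (15.7 to 21.4) and 21.9% (19.0 to 25.2). The upstream block held more bases in 62.4% of shNC and 66.1% of shALKBH5 2-block peaks at gene starts, and in 23.4% and 23.0% at gene ends. The 2-block peaks at gene ends were thus mostly peaks of the downstream exon that reached back over its 5′ border. Those at gene starts were split, more often with most bases in the upstream exon.

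Spliced peaks lay at gene starts more often, and at gene ends less often, than single-block peaks of the same list. Position was read against the RefSeq gene spans of GRCh38.p14, which placed 3470 shNC (88.6%) and 3886 shALKBH5 (88.3%) spliced peaks. A peak was at the start when its 5′ edge lay upstream of the gene start or less than 500 bases into the gene, and at the end when its 3′ edge lay less than 1000 bases from the gene end (start peaks excepted). Of the placed spliced peaks, 686 (19.8%, 18.5 to 21.1) were at the start in the shNC list, against 9.66% (9.21 to 10.1) of single-block peaks and 11.4% of all placed peaks. In the shALKBH5 list 993 (25.6%, 24.2 to 27.0) were at the start, against 12% (11.6 to 12.5) of single-block peaks and 14.5% of all. Gene ends held 421 spliced peaks (12.1%) in the shNC list, against 25.3% of single-block and 23.0% of all placed peaks. They held 435 (11.2%) in the shALKBH5 list, against 24.4% of single-block and 22.0% of all.

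The excess at starts was present in each class of length and of p. From 150 to under 300 bases, 28.3% of spliced and 11.7% of single-block shNC peaks were at the start, and 37.5% and 15.2% of shALKBH5 peaks. At 600 bases or more the shares were 12% and 5.60% in the shNC list and 13.7% and 6.03% in the shALKBH5 list. In the strongest of the 4 p classes, 11.4% of spliced and 5.21% of single-block shNC peaks were at the start, and 15.2% and 5.62% of shALKBH5 peaks. The 5′ edge of spliced start peaks had a median distance of 17.5 bases (7 to 30) from the RefSeq start with shNC and 4 bases (0 to 8) with shALKBH5. Of them, 61 (8.89%) and 90 (9.06%) began over 500 bases upstream of that start, as ALKBH5 itself did, so the table's start is not the start of every transcript used by the authors.

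Many spliced peaks were listed in both conditions. A partner was defined as a peak of the other list with at least 1 exonic base in common, strand ignored. In the shNC list 331 spliced peaks (8.45%, 7.60 to 9.37) had no partner, against 13.5% (13 to 14) of single-block peaks and 12.6% of all peaks. In the shALKBH5 list 702 (15.9%, 14.9 to 17.1) had none, against 20.7% (20.1 to 21.2) of single-block peaks and 19.8% of all. Within p classes spliced peaks did not have the lower share throughout. In the weakest class 39.9% (35.9 to 44.0) of spliced and 38.5% (37.2 to 39.9) of single-block shNC peaks had no partner, and 58.5% (54.8 to 62.1) and 54.1% (52.8 to 55.5) of shALKBH5 peaks. In the third class it was 10.8% (8.78 to 13.2) and 10.9% (9.99 to 11.8) with shNC, and 25.3% (22.6 to 28.2) and 20.9% (19.8 to 22.1) with shALKBH5. In the second class it was 0.771% and 0.831% with shNC, and 3.53% and 2.82% with shALKBH5. The order was thus the opposite of that over the whole list in the shALKBH5 list for the second, the third and the weakest class, and in the shNC list for the weakest, with intervals that overlapped except in the third class with shALKBH5. In the strongest class 0 of 1476 spliced shNC peaks, which allows a share of up to 0.203% (3 counts of the total), and 1 of 1567 spliced shALKBH5 peaks had none. When the shared bases had to make up 50% of both peaks, 14.6% of spliced and 23.8% of single-block shNC peaks had no partner.

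**Figure D3:**
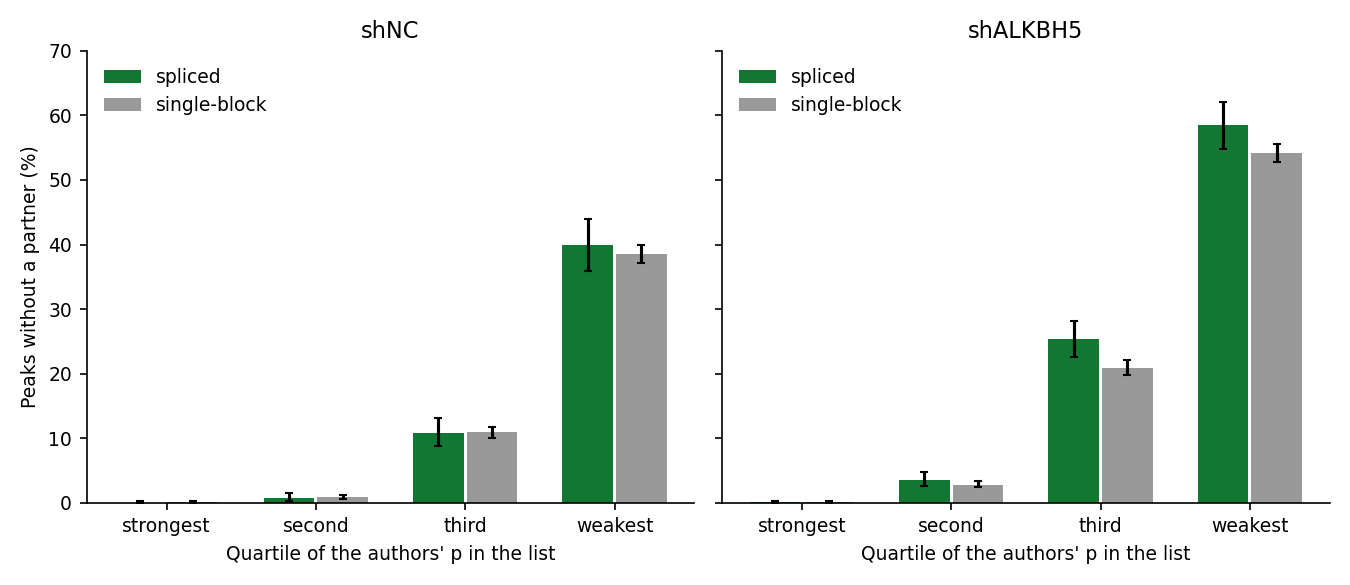
Percentage of peaks without a partner in the other list by class of the authors' p, for spliced and single-block peaks, with 95% binomial intervals. In the weakest class the spliced share was 39.9% with shNC and 58.5% with shALKBH5, close to the 38.5% and 54.1% of single-block peaks.

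Spliced shALKBH5 peaks without a partner stood at gene starts nearly as often as away from them. Of the 635 that were placed, 295 (46.5%, 42.5 to 50.4) were at a start, against 23.6% (22.2 to 25) of single-block peaks without a partner. With a partner, 21.5% (20.1 to 22.9) of spliced shALKBH5 peaks were at a start. In the shNC list the share was 20.1% (15.8 to 25.1, 61 of 303) without and 19.7% (18.4 to 21.2) with a partner. The 295 peaks lay in 295 genes, of which 203 (68.8%) had another peak in the shNC list. The like share was 68.9% (42 of 61) for shNC start peaks without a partner. Over all spliced shALKBH5 start peaks it was 90.3%. That share includes peaks with a partner, which overlap a shNC peak by definition, so it cannot be compared with the 68.8%. The 295 peaks had a median fold of 4.12 (3.53 to 4.52) and a median log10 p of -5.27. Spliced shALKBH5 start peaks with a partner had 5.99 (5.62 to 6.39) and -25.4. These are weak peaks of 1 library pair, and with no replicate it cannot be seen whether the share would recur.

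**Figure D4:**
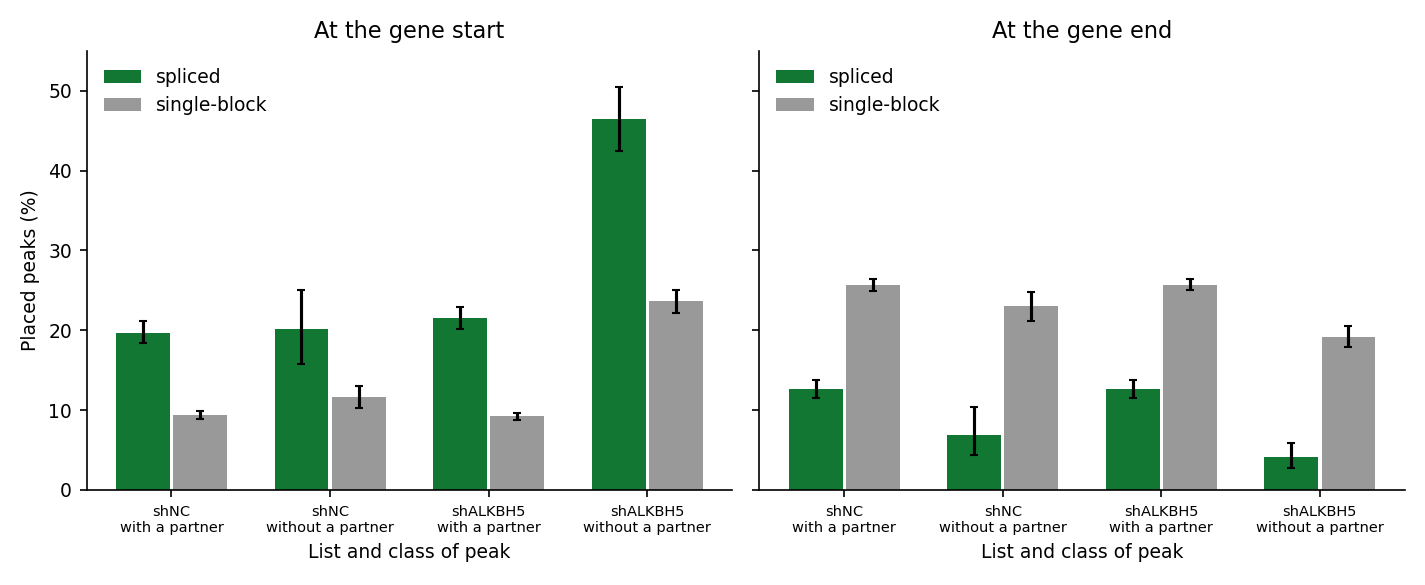
Percentage of placed peaks at the gene start (left) and at the gene end (right) for spliced and single-block peaks with and without a partner, with 95% binomial intervals. The bar of spliced shALKBH5 peaks without a partner stands at 46.5% at the start, above the 3 other spliced bars at 19.7%, 20.1% and 21.5%. Single-block shALKBH5 peaks also stand higher there without a partner, at 23.6%, than with one, at 9.20%.

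The 50 transcribed bases of the promoter table were searched for GGAC on the transcribed strand in genes whose spliced peak began before base 50. A match was found in 23.8% (18.7 to 29.5) of 256 shNC promoters and 23.2% (19.2 to 27.6) of 405 shALKBH5 promoters, out of 414 and 680 such genes. For single-block peaks that began there it was 25.2% (21.3 to 29.5) and 20.1% (17.3 to 23.0). The share was 19.6% (18.6 to 20.6) over 5937 genes with any peak and 18.9% over all 35116 promoters. For 125 genes with a spliced shALKBH5 start peak without a partner it was 14.4% (8.76 to 21.8), against 19.3% (15.4 to 23.8) of 357 with a single-block one. In the shNC list 4 of 18 promoters (22.2%, 6.41 to 47.6) held it for spliced and 22 of 55 (40%, 27 to 54.1) for single-block start peaks without a partner. GTCC, which is GGAC read on the opposite strand, was found in 16.8% and 19.3% of the 256 and 405 promoters, in 19.2% of the 125 and in 19.8% of genes with any peak. The first transcribed base was A in 52.3% (46.0 to 58.6) of the 256 and 51.1% (46.1 to 56.1) of the 405, and in 53.7% of promoters with a single-block start peak in each list. It was A in 46.2% (44.9 to 47.5) of genes with any peak. Spliced and single-block start peaks thus had intervals that overlapped for the first base and, over all start peaks, for GGAC.

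The exact junction was often the same in both lists. The sources do not state whether the blocks come from an annotation or from reads. If they come from an annotation, peaks that cross the same annotated border would print the same junction, which was not tested. Equal junctions show that both lists crossed the same printed border, not that its position was measured in each. There were 4534 distinct junctions with shNC and 5046 with shALKBH5, of which 3327 were listed in both, 73.4% of the shNC and 65.9% of the shALKBH5 junctions. The whole chain of junctions recurred for 67.0% of spliced shNC and 59.6% of spliced shALKBH5 peaks. Borders at each end were also equal for 740 spliced peaks (18.9% and 16.8%), against 11.2% and 10.3% of single-block peaks. Of the 1207 shNC junctions without a match, 771 (63.9%) had 1 neighbouring block overlapped by the shALKBH5 list, 404 (33.5%) had neither and 32 (2.65%) had both. Of the 1719 shALKBH5 junctions without a match, 900 (52.4%) had 1 block overlapped by the shNC list, 791 (46.0%) neither and 28 (1.63%) both. Among junctions of spliced start peaks 76.9% of the shNC and 55% of the shALKBH5 ones were matched, against 71.2% and 68.9% of those away from the start.

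Several genes showed how 1 list crossed a junction that the other stopped short of. CD28, a costimulatory receptor also found on myeloma cells, had a shALKBH5 peak of 7 and 593 bases with a fold of 7.16 and a shNC peak of 600 bases in 1 block with a fold of 7.92. In WTAP, a subunit of the methyltransferase complex, a shNC peak of 3 and 808 bases (fold 13) faced a shALKBH5 single-block peak of 781 bases (fold 10.5). BIRC3, an inhibitor of apoptosis in the NF-kB pathway, had a shNC peak of 509 bases and 1 base (fold 8.18) and a shALKBH5 single-block peak of 540 bases (fold 11.5). SETBP1, which encodes a binding partner of the protein SET, had a shALKBH5 peak of 656 and 35 bases across a gap of 167397 bases (fold 17.5) and a shNC single-block peak of 631 bases (fold 15.6). The enriched exon was therefore listed in both conditions in these 4 genes, and the junction in 1. RIPK1, a kinase of the tumour necrosis factor receptor pathway, had the same junction in both lists but not the same extent: 11 and 1539 bases with a fold of 23.2 in the shNC list, and 11 and 288 bases with a fold of 7.10 beside a single-block peak of 1163 bases with a fold of 13.6 in the shALKBH5 list.

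The hairpin's target gene carried a spliced peak in both lists. ALKBH5 (ENSG00000091542) had 2 blocks of 9 and 349 bases at chr17:18183257-18184587 in the shNC list, where the fold was 5.98 and the log10 p -599. In the shALKBH5 list the blocks were 9 and 320 bases, the fold 5.71 and the log10 p -237, with the same gap of 973 bases. A clone-named gene on the opposite strand, AC087164.1, had a spliced peak overlapping it in each list (folds 9.05 and 5.68), and without a stated strand protocol the pair cannot be told apart. TRAF1, an adaptor of the tumour necrosis factor receptor family, had 5 peaks with shNC and 6 with shALKBH5, all of a single block.

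Among spliced peaks with the same junctions in both lists, ranked by the lower of their 2 ranks by fold, the first was that of SYNCRIP (ENSG00000135316), an RNA-binding protein of the hnRNP family. Its peak at the gene start had blocks of 43 and 407 bases and a fold of 93.7 in the shNC list, and blocks of 43 and 317 bases and a fold of 124 in the shALKBH5 list. It ranked 10 by fold among the spliced peaks of the first list and 3 among those of the second. DLK2, a Delta-like membrane protein, had folds of 36.6 and 49.8 over identical borders, and ZNF316 had folds of 37.0 and 48.4. The log10 p of DLK2 was -10.0 and -14.0, weaker than the medians of -31.6 and -26.9 over spliced peaks. NECTIN2, a cell adhesion protein, had folds of 44.4 and 43.2 and blocks of 525 and 16 bases in both lists. MYO9A, an unconventional myosin, had folds of 50.4 and 42.3, MAP3K4, a stress-pathway kinase, 38.2 and 41.8, the golgin GOLGA5 38.4 and 41.0, and the membrane protein LRIG3 40.4 and 39.1. The reader YTHDF3, named here after its values were seen, had a higher fold than SYNCRIP in the shNC list, 127, but 20.4 in the shALKBH5 list, over equal borders and 1676 exonic bases. In 6 of the 8 ranked genes, in both lists, the shorter block was under 50 bases and the longer over 300, so most of the exonic bases lay in 1 block.

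By the lower of their 2 ranks by p, the first 6 spliced peaks with the same junctions in both lists had folds from 7.25 to 20 and ranked from 1 to 9 in their lists. In 4 of them the peak was at the gene end in both lists. CALR (ENSG00000179218), a calcium-binding chaperone of the endoplasmic reticulum, ranked first by p in either list, at a log10 p of -7730 and a fold of 7.82 in the shNC list and -6290 and 7.25 in the shALKBH5 list. Its downstream block of 419 bases was the same in both, while the upstream block had 118 bases with shNC and 29 with shALKBH5, across a gap of 83 bases. CUL1, the scaffold of SCF ubiquitin ligases, followed with folds of 16.8 and 16.1 and a downstream block of 505 and 475 bases. UBE2Q1, a ubiquitin-conjugating enzyme, had folds of 20 and 18, and IGFBP3, which binds insulin-like growth factors, 9.12 and 8.80 over identical blocks of 114 and 485 bases. ARPC5L, an Arp2/3 complex subunit, had folds of 9.34 and 10, and the adhesion molecule ICAM1 12.1 and 10.8. In all 6 genes the downstream block was the longer.

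**Figure D5:**
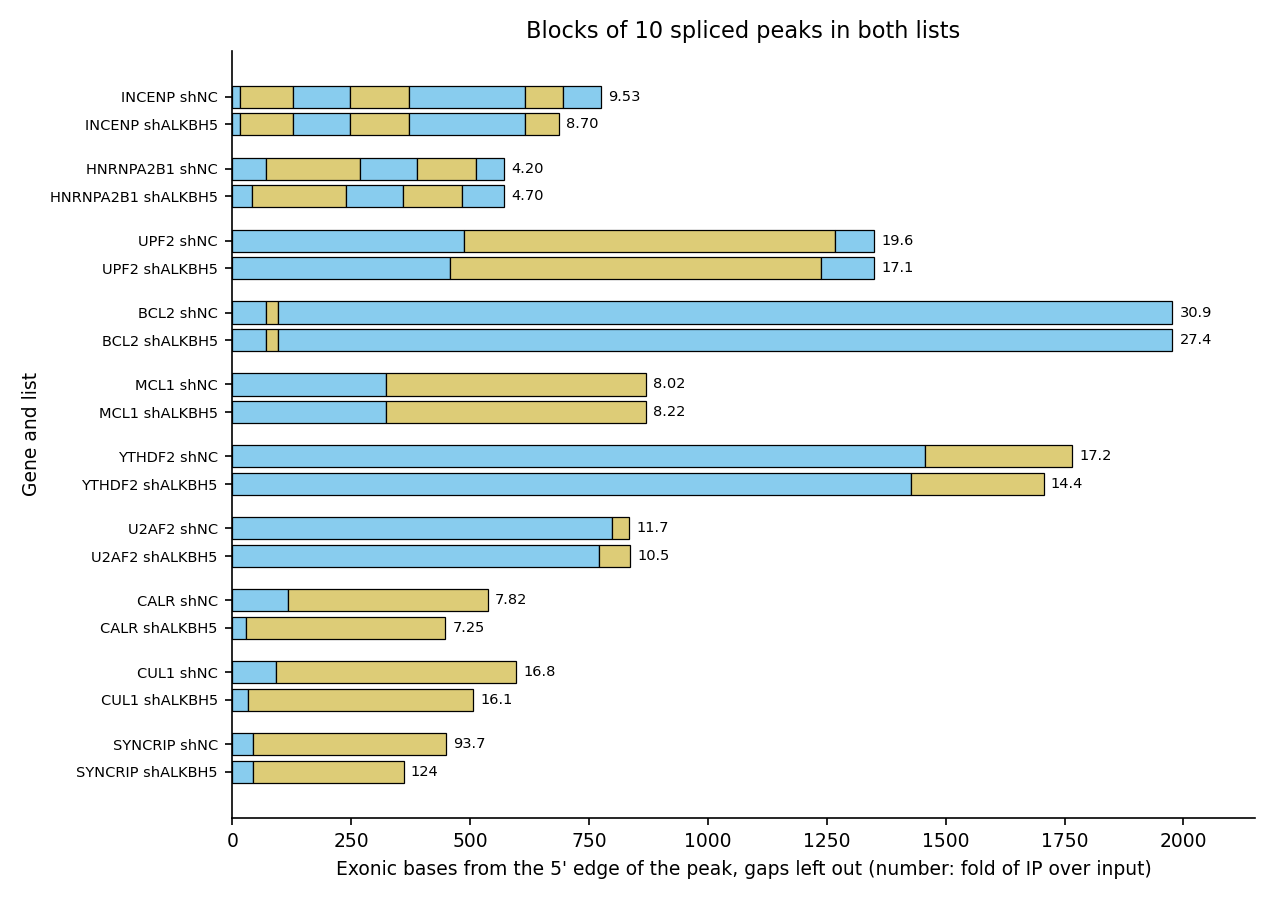
Block lengths of 10 spliced peaks laid end to end from the 5′ edge with the gaps left out, in exonic bases, for each list, with alternating colours for neighbouring blocks and the authors' fold printed beside each bar. BCL2 and MCL1 have the same blocks in both lists, whereas the first CALR block has 118 bases with shNC and 29 with shALKBH5.

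A few peaks ran over many exons. INCENP, a member of the chromosomal passenger complex of mitosis, had 7 blocks and 776 exonic bases in the shNC list (fold 9.53) and 6 blocks and 686 bases in the shALKBH5 list (fold 8.70), beginning at the same base. GOLIM4, a Golgi membrane protein, had 7 blocks and a fold of 3.69 in the shNC list, which faced a 5-block peak (fold 2.30) and a single-block peak (fold 1.47) in the shALKBH5 list. EIF5B, a translation initiation factor, had 6 blocks from its start over 1440 bases with a fold of 12.3 in the shNC list. The shALKBH5 list held 2 peaks there, of 237 and 34 bases at the start (fold 10.9) and of 5 blocks with 1109 bases (fold 7.69). HNRNPA2B1, an hnRNP protein described as an m6A reader, had 5 blocks and 571 bases in both lists, with folds of 4.20 and 4.70.

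Long gaps joined exons far apart. BCL2 (ENSG00000171791), the anti-apoptotic protein, had blocks of 71, 24 and 1882 bases with a longest gap of 151932 bases, equal in both lists, and folds of 30.9 and 27.4. MAML2, a Notch coactivator, held the longest gap, 247862 bases, but only 2 bases lay in its second block, and its folds were 4.56 and 3.78. HMGB1, a chromatin protein, had a gap of 150705 bases with folds of 5.05 and 4.08. CMSS1 had a start peak without a partner in the shALKBH5 list, of 180 and 30 bases across 193659 bases, with a fold of 1.60. With strand ignored, another peak of the same list lay inside a gap of 4.14% of spliced shNC and 4.07% of spliced shALKBH5 peaks. Counting only peaks on the same strand, the shares were 1.61% and 1.48%.

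The 4 genes with the most spliced peaks encode large mitotic and cytoskeletal proteins. CENPE, a kinetochore motor, had 9 in the shNC list, with folds from 2.35 to 7.07, and 7 in the shALKBH5 list, with folds from 2.90 to 5.75. CENPF, another kinetochore protein, had 6 (1.83 to 9.84) and 7 (1.60 to 10.1). Its start peak of 127 and 84 bases, over the start sequence printed for it, had a fold of 3.98 with shNC and 9.82 with shALKBH5. DST, a linker of cytoskeletal filaments, had 5 in each list. Among them a shNC peak of 4 and 626 bases with a fold of 19.2 faced a shALKBH5 peak of 34 and 656 bases with a fold of 43.4. The log10 p of this pair was weak, at -9.54 and -12.1. MYH9, the heavy chain of non-muscle myosin IIA, had 5 in each list with folds of 3.59 and 2.72 at most. Its start peak in the shALKBH5 list, of 171 and 9 bases across 22694 bases, had no partner and a fold of 1.71.

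Spliced peaks without a partner were named by p and by fold. Those with the strongest p in the shNC list had folds from 1.34 to 2.11. They were HSP90B1, an endoplasmic reticulum chaperone, with a fold of 1.60, the translation factor EIF4G1 with 1.34, the splicing factor SFPQ with 1.52, the chromatin remodeller subunit SMARCC1 with 2.11 and the chromatin protein DEK with 1.67. None of these 5 lay at a gene start. In the shALKBH5 list the strongest were the ribosomal protein gene RPL14 with 1.58, the co-repressor TRIM28 with 1.77, the kinase CSNK1G2 with 4.36, the mitochondrial dehydrogenase HSD17B10 with 10.9 and the oligoribonuclease REXO2 with 2.26, of which all except RPL14 lay at a gene start. Those with the highest folds had weak p: the protease CAPN1 (35.7, log10 p -9.78), the U7 snRNP subunit LSM10 (26.8) and NXPE3 (24.1) in the shNC list, and the phosphatase DUSP23 (36.2, log10 p -9.89), C10orf55 (31.7) and the endocytic adaptor STON2 (30.8) in the shALKBH5 list. The gap was 28 bases in CAPN1 and 2 bases in DUSP23, shorter than human introns usually are.

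Gene lists were read against the 29.4% and 31.1% of all genes with a peak that had a spliced one. Among genes of the exon junction complex and its partners in nonsense-mediated decay, 10 of 19 with a peak had a spliced peak in the shNC list and 12 of 21 in the shALKBH5 list. UPF2, a decay factor, had 3 blocks with a middle block of 780 bases and folds of 19.6 and 17.1, and ACIN1 had folds of 13.3 and 9.57. The median fold over the spliced peaks of this list was 3.57 and 2.72, below the 6.66 and 6.79 over all spliced peaks. It was also below for SR and U2 splicing factors (3.73 and 4.11) and plasma cell and myeloma genes (3.89 and 5.52). The same held for the unfolded protein response (5.40 and 6.04) and cytoplasmic ribosomal proteins (2.49 and 3.46). It was above for the m6A machinery (10.3 and 8.87) and for tumour necrosis factor receptors and NF-kB (8.13 and 8.14). Among genes of the m6A machinery 12 of 21 and 11 of 22 had a spliced peak. The 11 genes in both lists were ALKBH5, HNRNPA2B1, HNRNPC, IGF2BP3, METTL3, WTAP, YTHDC1, YTHDF1, YTHDF2, YTHDF3 and ZC3H13, and CBLL1 was in the shNC list alone. The reader YTHDF2 (ENSG00000198492) had blocks of 1457 and 309 bases and a fold of 17.2 in the shNC list, and of 1427 and 279 bases and 14.4 in the shALKBH5 list. Among SR proteins and U2 splicing factors 6 of 17 and 5 of 14 had a spliced peak. U2AF2, which recognises the 3′ splice site, had a start peak of 799 and 36 bases (fold 11.7) and of 770 and 66 bases (fold 10.5), and SRSF11 had folds of 4.70 and 3.54.

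Among plasma cell and myeloma genes 6 of 21 and 7 of 22 had a spliced peak. MCL1, an anti-apoptotic relative of BCL2, had identical blocks of 323 and 546 bases in both lists, with folds of 8.02 and 8.22. Among genes of tumour necrosis factor receptors and NF-kB 10 of 28 and 13 of 29 had a spliced peak, and among genes of the unfolded protein response 9 of 23 and 10 of 23. DNAJB9, an endoplasmic reticulum co-chaperone, had folds of 18.3 and 17.1. Cytoplasmic ribosomal protein genes had 4 of 25 and 7 of 30, with RPL13A at folds of 2.72 and 2.71 and RPS24 at 2.17 and 2.13. These shares range on either side of the background, over few genes.

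Zinc finger genes with ZNF symbols, many of which encode their array of fingers in a long last exon, had few spliced peaks for their number of peaks. In the shNC list 104 of their 1128 peaks were spliced (9.22%), against 17.4% of all peaks, and in the shALKBH5 list 124 of 1202 (10.3%), against 17.9%. By genes the shares were 94 of 395 (23.8%) and 106 of 405 (26.2%). The median fold of their spliced peaks was 12.4 and 11.1. ZNF131 had blocks of 11 and 950 bases in both lists with folds of 14.9 and 15.6. ZNF680 had 72 and 437 bases (fold 11.2) beside a single-block peak of 1405 bases (fold 17.4) in the shNC list, and a peak of 72 and 1960 bases (fold 15.3) in the shALKBH5 list.

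Markers of T, NK, myeloid and stromal cells had a peak in 7 of 22 genes with shNC and 6 with shALKBH5, and only ITGAM had a spliced one, with folds of 4.03 and 3.55. Its blocks had 1 and 179 bases with shNC and 1 and 209 bases with shALKBH5, so a single base placed it within the rule in both lists. Of 27 plasma cell and myeloma genes, 21 and 22 carried a peak. The lists hold no expression levels, so these counts describe which genes carry peaks, and in a bulk culture fewer cells with a transcript and less RNA per cell cannot be told apart. An opposite-strand peak of the same list overlapped 12.5% of spliced shNC and 12.6% of spliced shALKBH5 peaks, against 9.10% and 9.27% of single-block peaks.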

How the data were processed

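Poly(A) RNA of shNC and shALKBH5 cells gave 1 IP and 1 input library per condition, per the labels' protocols. Per the submitters' processing notes, HOMER 4.9.1, fastp 0.19.11 and BWA 0.7.12 were among the tools and the build was hg38; roles and order are not stated there. The sources used here do not name the peak caller, its settings, the normalization or the strand protocol. Each condition has 1 deposited list, and the labels mention no pooling. A row, per the file headers, has a position, strand, blocks, an Ensembl gene, a p-value, log10 p and log10 FDR (read as a score with no fixed range) and a fold enrichment, the ratio of IP over input. The log10 FDR was lost to spreadsheet errors in 1079 and 1109 rows and was not used. The log10 p was lost in 2 and 1 rows, none of them spliced.

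Blocks were read as deposited, using Python 3.11.15 (pandas 2.3.3, SciPy 1.17.1, numpy 2.4.6; figures by matplotlib 3.10.9). Partners, junctions and start calls were tested on simulated data, where all 2000 planted calls of each kind came out right. All planted peaks were on the plus strand, planted partners began at the same base, and gene starts were set directly. The simulation therefore did not cover minus-strand genes, slight overlaps or the placement on RefSeq. Intervals are exact (Clopper-Pearson) or order-statistic. Depth is unknown, so no other precision can be given. The members, gene lists and naming rule were chosen with earlier results of these data known. The rule named ALKBH5 and TRAF1, the 8 spliced peaks with the same junctions in both lists and the best lower rank by fold, and the 6 with the best lower rank by p. Per list it added the 5 strongest by p and the 3 highest by fold without a partner, the 4 with the most blocks, the 3 with the longest gap, the 4 genes with the most spliced peaks, and up to 2 genes of each of 9 gene lists by p. The rankings skipped pseudogenes, immunoglobulin genes and unnamed loci. AC087164.1 is named because it overlaps ALKBH5. Alternatives were a stricter fold, the stronger 50% by p, 50% reciprocal overlap, the same strand, blocks of at least 10 bases, equal list lengths, junction borders within 10 bases, narrower start and end windows, and equal rows counted once. The alternative with gaps of at least 30 bases, and all those for start peaks without a partner, were chosen after seeing the data.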

Additional observations from a re-analysis of the deposited data

How the results depend on the processing

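No difference between spliced and single-block peaks with main intervals apart changed its direction under the settings applied to it. Direction was not judged for the spliced share and the matched junctions, which have no single-block value, or for the fold, where the main intervals overlapped. Of 86 alternative values, 57 stayed within the interval of the main value. Leaving out 1 of 4 libraries was not possible, since each list rests on 1 IP and 1 input library. No paired analysis was possible because each condition has a single list. With the stronger 50% by p, the spliced share was 22.4% (shNC) and 22.2% (shALKBH5), the junctions matched 77.6% and 72.0%, and the median fold 8.23 (7.88 to 8.56) and 8.23 (7.97 to 8.60), against 7.85 (7.66 to 7.98) and 7.80 (7.66 to 7.95) for single-block peaks, so that the shALKBH5 intervals no longer overlapped. With every block at least 10 bases, where rows with a shorter block leave the count of spliced peaks, the spliced share was 14.5% and 15%, the share without a partner 11.5% and 19.2%, the junctions matched 71.1% and 63.2%, and the shALKBH5 start share 27.4%. With lists of equal length, the shALKBH5 spliced share was 18.5%, the share without a partner 10% and 12.6%, and the shALKBH5 junctions matched 68.6%. With folds at least 2 times the lowest, the share without a partner was 10.2% and 17.8%, and the median exonic length 357 and 329 bases. With 50% reciprocal overlap, 14.6% and 22.9% had no partner. With a start window of 200 and an end window of 500 bases, the start share was 15.6% and 21.1%, the end share 8.13% and 7.49%, and the start share of spliced peaks without a partner 15.2% and 40.8%. Beyond what each setting removes by construction, the cause was not tested. With gaps of at least 30 bases no value left its interval. Single-block peaks had the higher share without a partner and the lower share at starts under each setting that gave both. The stronger 50% by p was not applied to either of these shares. Within classes of p, as given above, single-block peaks did not have the higher share without a partner throughout. Limits are the lack of replicates, unknown depth, an unstated peak caller and strand, and blocks of unstated origin.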
